A study of Mus musculus with 4 samples.

Results

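The spots described here are 680 Visium spots of cortical layer 6 outside the subplate, 170 in each of 4 coronal mouse brain sections, out of 13452 spots kept in all (5.06%). They were chosen by measured values. In each section, spots with at least 500 unique molecular identifiers (UMIs) and 250 genes were scored by the mean of ln(1 + UMIs per 10000 spot UMIs) over a list of genes. The 50 spots highest for Ccn2 and Cplx3, which mark the subplate (layer 6b), were set aside, and of the rest the 170 highest for Nxph3, Trbc2, Vxn and Rprm were taken. With the sections written MF1 and MF2 (replicates of one diet) and HF1 and HF2 (replicates of the other), the lowest scores taken were 1.03, 0.963, 0.9925 and 1.06. The highest scores left out were 1.03, 0.959, 0.990 and 1.06 in the same order, so the boundary is a count of spots and not a gap in the scores.

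The sections came from wild-type C57BL/6J male offspring at postnatal day 21. Their mothers, 8 weeks old at the start, received a diet with 2 mg/kg folic acid (FA) in the MF group (2 sections) or 20 mg/kg FA in the HF group (2 sections). Each diet was given from 2 weeks before mating through pregnancy and lactation. The study describes the 2 sections of a diet as biological replicates, while the labels tie no section to an animal or slide, so p-values measure the spread between these sections. The question was which transcripts of the offspring brain differ between the maternal diets.

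Layer 6 is the deepest layer of the neocortex before the white matter. Its best known neurons are corticothalamic cells, which send axons to the thalamus and are shaped by transcription factors such as Tbr1 and Sox5, alongside intratelencephalic cells, which project within the cortex, and inhibitory interneurons. Below them lies the thin subplate, a remnant of the earliest cortical neurons, and below that the myelinated axons of the white matter.

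In Visium-FFPE, probe pairs bind transcripts in formalin-fixed tissue and are then counted per barcoded spot of an array. A spot holds RNA of several neighbouring cells, so a layer 6 spot is an area of tissue and not a cell, and fewer cells of a type cannot be told apart from less RNA per cell. The layer 6 spots of MF1, MF2, HF1 and HF2 held 5574596, 1994102, 1864046 and 2073086 UMIs. MF1 stood apart, with a median of 31664 UMIs per layer 6 spot against 11788.5, 9583.5 and 11876.5 in the other sections. Outside layer 6 its median was 23044.5 against 12100.5, 9247 and 11819. Between 2647 and 3104 spot barcodes were shared by any pair of sections, which is a property of the array, where a barcode names a position. Levels below are UMIs of a gene per 1000000 UMIs summed over the spots named (CPM). Probes differ between genes, so levels are compared between spots and sections for a gene and not between genes.

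The layer 6 spots formed a curved band just outside the subplate spots in all 4 sections. A layer 6 spot had on average 3.44, 3.08, 3.12 and 3.02 layer 6 spots among its 6 grid neighbours in MF1, MF2, HF1 and HF2. Another spot had between 0.101 and 0.136. Between 8 and 19 of the 170 members per section had no such neighbour. The median distance to the subplate, measured as the mean number of grid steps to the 3 nearest of the 50 subplate spots, was 2.67 in each section. Position was not used to choose the spots. For comparison, 170 layer 5 spots (highest for Fezf2, Deptor and Rbp4) and 170 layer 2-3 spots were taken per section in the same way, and lay at median distances of 5.33 to 6.0 and 7.67 to 10.3 grid steps. The layer 5 spots also held transcripts of other areas. On average Oxt and Avp of the hypothalamus stood there at 148 and 112 CPM, and Ttr of the choroid plexus at 1358 CPM against 640 in layer 6. Over whole sections Oxt and Avp were high only in HF2, so their means do not describe every section. The median log2 ratio of layer 6 to layer 5 was -0.76 for thalamic genes.

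**Figure D1:**
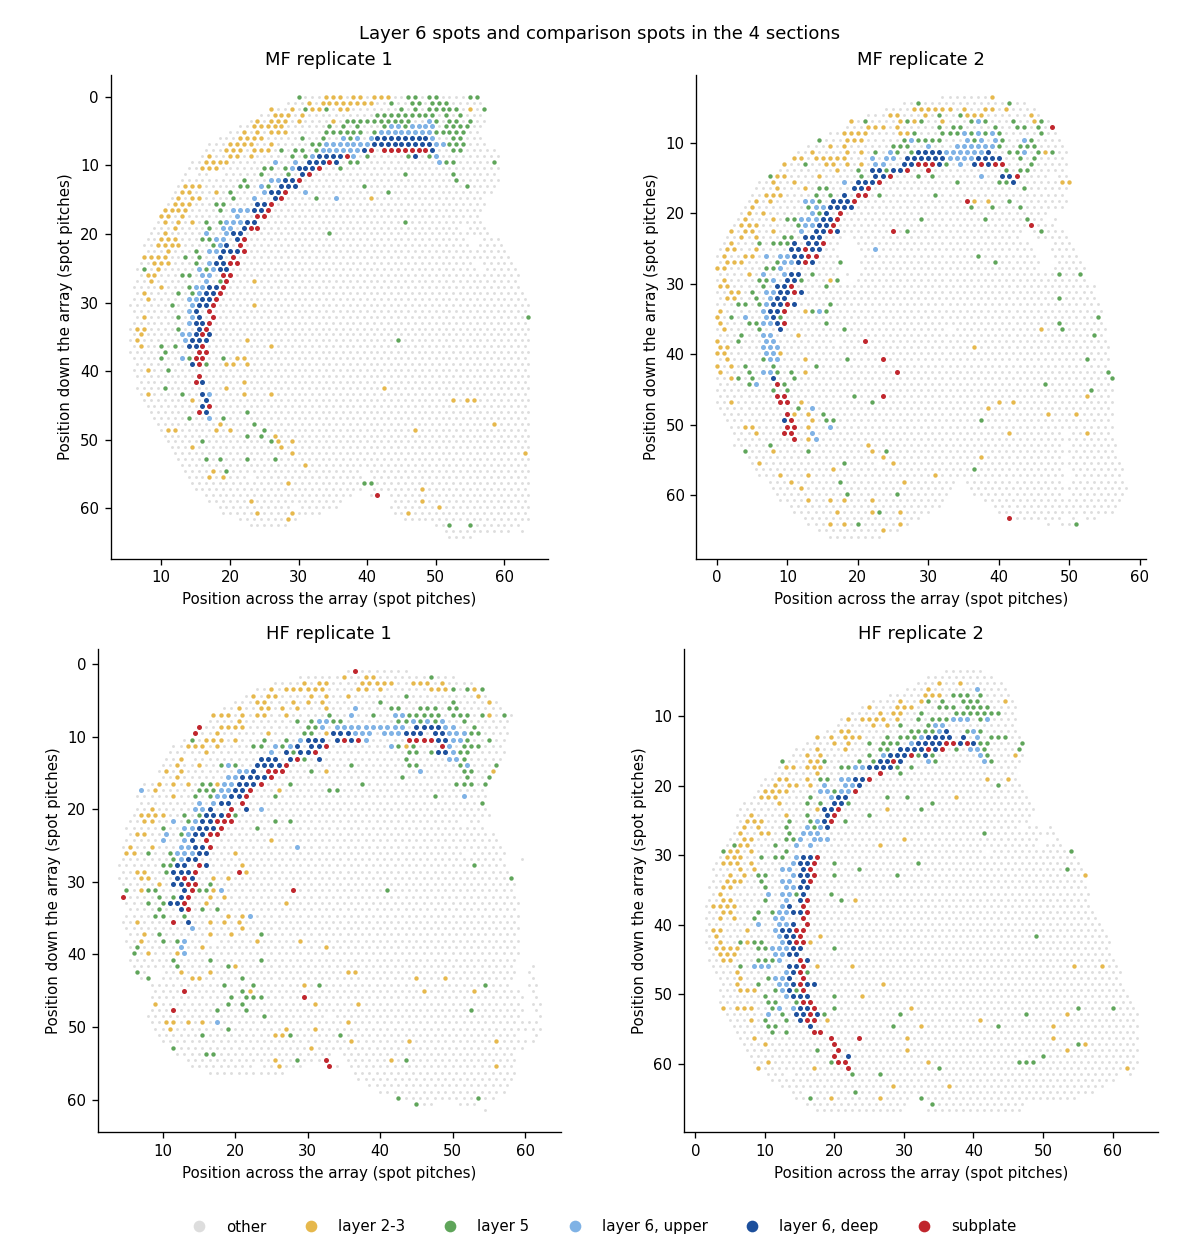
Position of kept spots in the 4 sections, in spot pitches across (x) and down (y) the array; colours mark deep and upper layer 6 spots (85 each per section), 50 subplate spots, 170 layer 5, 170 layer 2-3 and all other spots. The layer 6 spots follow the cortical curve outside the subplate spots, and the comparison layers lie further out with more strays.

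The markers of the rule describe the choice and carry no test. Nxph3 encodes a secreted neurexophilin that binds neurexins, and its level in layer 6 spots was 193 ± 14.7 CPM against 30.05 ± 3.82 in all other spots (SD, n = 4 sections). Rprm, an inducer of cell cycle arrest, stood at 243 ± 5.52 CPM against 43.3 ± 6.23. Vxn, a factor of neuronal differentiation, stood at 976 ± 55.5 CPM against 225 ± 16.5. Trbc2 encodes a constant segment of the T cell receptor beta chain, of which a closely similar copy exists in the genome, so its value may hold reads of both. It stood at 144 ± 33.0 CPM against 13.3 ± 2.44. The markers were not equally exclusive of the subplate: Nxph3 was higher in subplate spots in 4 of 4 sections (285 ± 42.7 CPM), and Trbc2 and Rprm were lower there in 4 of 4 (60.2 ± 11.25 and 119 ± 35.5 CPM). All 4 rule genes were seen together in 154, 92, 95 and 127 of 170 members, in the section order used above, and in 9.57%, 1.56%, 1.59% and 1.86% of other spots.

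Markers of corticothalamic neurons that the rule did not use had higher levels in the layer 6 spots. All 11 genes of that list were above their level in other spots in 4 of 4 sections, where 21.8% of all 9266 genes with at least 10 CPM were so. Because the spots were chosen on expression, this is a description. Syt6, a synaptotagmin typical of these cells, stood at 53.6 ± 4.38 CPM against 13.7 in layer 5, 10.6 in layer 2-3 and 27.5 in subplate spots. Tle4, a transcriptional corepressor, stood at 94.05 ± 5.47 CPM against 43.4, 27.2 and 108 in the same sets. Foxp2, a forkhead factor, stood at 20.5 ± 4.74 CPM and was only modestly above the other spots (14.9 ± 1.37). Of the factors that set corticothalamic identity, 13 of 14 were higher than in other spots in 4 of 4 sections. Sox5 stood at 79.5 ± 6.57 CPM against 36.2 ± 3.03, and Zfpm2 at 44.9 ± 8.72 against 17.96 ± 1.85.

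The subplate did not carry over as a whole. Nxph4, a neurexophilin gene of layer 6b, stood at 8.45 ± 1.96 CPM in the layer 6 spots and 83.0 in the subplate spots, and was below its level in other spots in 4 of 4 sections. The rule genes for the subplate stood at 65.8 ± 19.7 CPM (Ccn2) and 44.7 ± 5.59 CPM (Cplx3) in layer 6 spots. Both were nonetheless above their level in other spots in 4 of 4 sections, with a median log2 ratio of 0.94. Their higher levels in subplate spots (646 and 353 CPM) follow from the choice of those spots.

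The genes that led in the layer 6 spots were taken by their ratio to all other spots among genes with at least 50 CPM in every section. Hs3st2, which adds 3-O-sulfate to heparan sulfate, stood at 124, 135, 125 and 138 CPM, with a log2 ratio of 2.20 ± 0.20 (SD, n = 4 sections). Its relative Hs3st4 had a log2 ratio of 1.49 ± 0.15 and stood at 148 ± 23.3 CPM against 56.95 in layer 5 and 32.1 in layer 2-3. Both sulfotransferases were thus higher than in each comparison layer, in 4 of 4 sections. In subplate spots Hs3st2 stood at 115 ± 28.4 CPM and Hs3st4 at 158 ± 32.1, within their spread over sections there. Tbr1, the T-box factor of deep layers, had a log2 ratio of 1.89 ± 0.06 and stood at 79.2 ± 6.36 CPM. Fezf2, the zinc finger factor of subcortically projecting neurons, had a log2 ratio of 1.80 ± 0.16 to other spots and 3.08 to layer 2-3, while its lower level than in layer 5 follows from the choice of those spots.

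Nr4a2, an orphan nuclear receptor, had a log2 ratio to layer 5 of 1.61 ± 0.16, the largest among genes outside the rule with at least 50 CPM in every layer 6 section, and its layer 6 levels were 77.0, 61.7, 82.1 and 160 CPM. The value in HF2 was the highest, and the same section was also highest in layer 5 (53.2 CPM) and in the subplate (185 CPM). Nptx1, a neuronal pentraxin that gathers glutamate receptors at synapses, stood at 389 ± 24.99 CPM against 146 in layer 5 and 164 in layer 2-3, and 372 in the subplate. Igsf21, a synaptic adhesion protein, stood at 227 ± 37.1 CPM against 112 and 65.9, and 235 in the subplate. Garnl3, a GTPase activator, was higher than in layer 5, layer 2-3 and subplate spots in 4 of 4 sections (235 ± 24.9 CPM against 113, 73.15 and 127). Tmem178, a membrane protein of the endoplasmic reticulum, had a log2 ratio to other spots of 1.74 ± 0.10.

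Myl4, a myosin light chain, separated layer 6 from layer 2-3 (log2 2.35) but hardly from layer 5 (0.25, higher in 3 of 4 sections). Gm11549 had a log2 ratio of 1.79 ± 0.11 to other spots and 0.64 to layer 5. The last genes of the layer 5 comparison were Rasl10a, a small GTPase of the Ras family, and Tpbg, a leucine-rich membrane glycoprotein, both with a log2 ratio of 1.15.

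**Figure D2:**
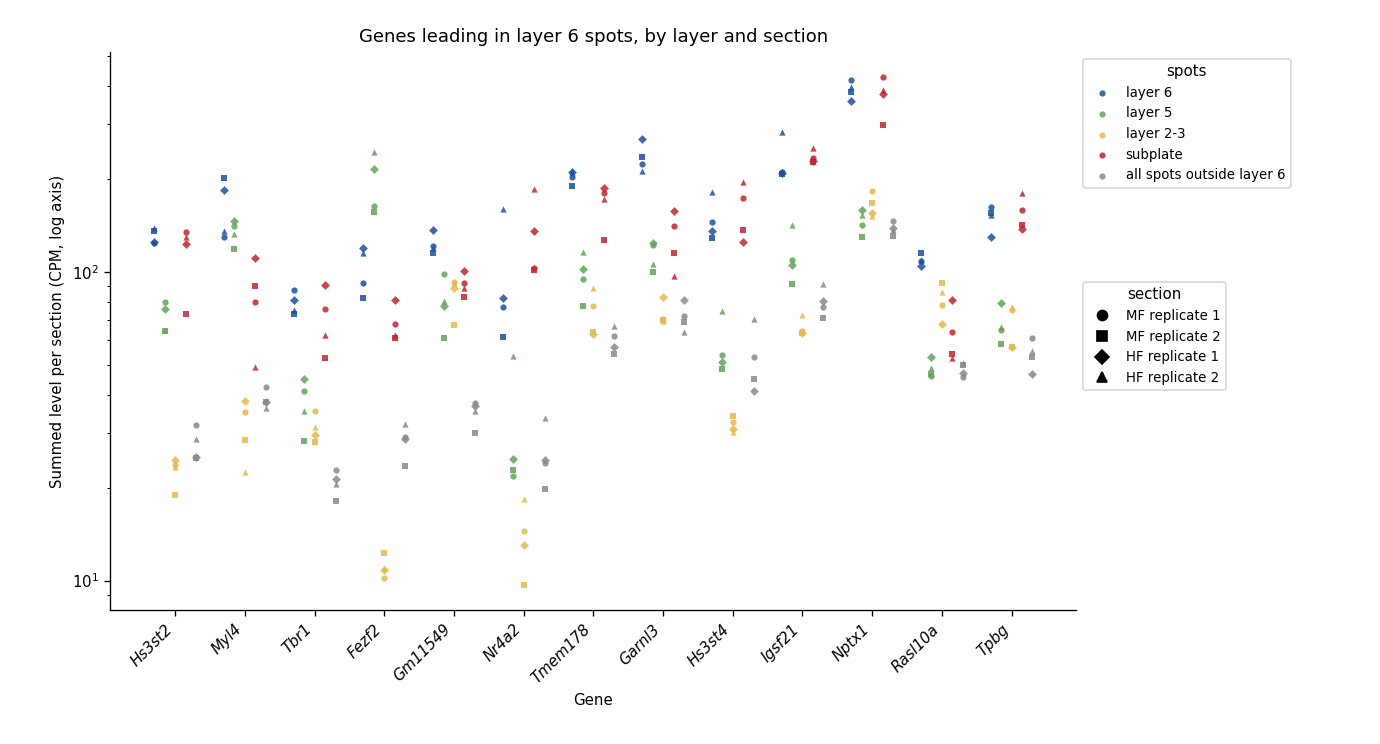
Level per section (CPM, log axis) of genes that led in layer 6 spots, in layer 6, layer 5, layer 2-3, subplate and all spots outside layer 6; each point is the sum over the spots of 1 section. The layer 6 points lie above all spots outside layer 6 for each gene shown, Fezf2 is higher in layer 5, and Nr4a2 is higher in the subplate in every section.

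Transcripts of other cell types were present in the layer 6 spots. The myelin and oligodendrocyte list summed to 18193, 20334, 16485 and 15685 CPM, and all 20 of its genes were lower than in other spots in 4 of 4 sections, where 33.9% of all genes were so. Mbp, the gene of the list with the highest mean count, stood at 5945 ± 695 CPM against 10907 in the subplate, 5900 in layer 5 and 3729 in layer 2-3. Layer 6 was thus below the subplate and above layer 2-3, but close to layer 5. The median log2 ratio of the list to layer 5 was 0.03. Interneuron genes were mixed: Sst was at 754 ± 63.2 CPM against 486 ± 40.7 in other spots, Pvalb at 188 ± 16.8 against 182 ± 62.1, and Gad1 at 31.75 ± 2.83 against 43.7 ± 12.6. Astrocyte genes were lower than in other spots for 8 of 10. For the thalamus 6 of 6 genes and for the choroid plexus 1 of 1 gene with at least 10 CPM were lower in 4 of 4 sections. Of the claustrum and endopiriform list, which shares Nr4a2 with layer 6, 4 of 5 genes were higher, among them Ntng2, an axon guidance netrin, at 216 ± 22.7 CPM against 147 in the subplate.

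Within layer 6, the 85 spots of each section nearest the subplate (deep) were compared with the 85 farthest (upper), with the section as a block. The subplate spots that define this axis were found by Ccn2 and Cplx3, so genes of the rules are not read here. Of 10336 genes tested, 96 were called higher in deep spots (0.929%), of which 93 are not rule genes, and 59 higher in upper spots (0.571%), at an adjusted p under 0.05 and at least 1.2-fold in edgeR's quasi-likelihood test. The median log2 ratio over all genes was -0.00.

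Sulf1, which trims sulfate from heparan sulfate, stood at 49.8, 51.0, 42.9 and 61.6 CPM in deep spots and 19.2, 26.7, 26.2 and 36.7 CPM in upper spots. Every section was higher in its deep spots, 2.05-fold over all (log2 1.03 ± 0.15 SE). Gfra1, the receptor of the growth factor GDNF, stood at 71.7 ± 1.46 CPM in deep and 41.2 ± 9.76 CPM in upper spots (1.69-fold, 4 of 4 sections). For Gfra1 the log2 ratio of 0.75 became 0.47 with 100 spots per section (adjusted p = 0.0836) and 0.24 after thinning to 5000 UMIs (0.892). Nr4a2 rose 1.59-fold from upper to deep spots, but in HF2 the levels were 159 and 160 CPM, and without MF1 its log2 ratio was 0.38 with an adjusted p of 0.226. Nxph4 was 3.13-fold higher in deep spots at low levels (12.7 ± 5.66 against 4.07 ± 1.77 CPM), though in HF1 the upper spots had more (6.28 against 5.51 CPM). The call for Nxph4 was lost without MF1 (adjusted p = 0.0683) and without HF2 (adjusted p = 0.142).

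The other deep genes were Kyat3, a kynurenine aminotransferase (2.76-fold), Clic5, a chloride intracellular channel protein (log2 1.03 ± 0.26), Col23a1, a membrane collagen (1.71-fold, 3 of 4 sections), and Ick, a kinase of cilia (log2 0.69 ± 0.18). With 250 spots per section the log2 ratio of Kyat3 was 0.47 (adjusted p = 0.553) and that of Ick 0.40 (0.182), and with 100 spots that of Col23a1 was 0.24 (0.822). Leaving out MF1 ended the calls of Col23a1, Clic5 and Ick (adjusted p = 0.698, 0.399 and 0.202), leaving out MF2 those of Kyat3 and Col23a1 (0.068 and 0.0707), and leaving out HF2 those of Col23a1, Clic5 and Ick (0.132, 0.441 and 0.219). Intratelencephalic and claustrum genes were also among those called: Cdh13 and Col23a1 of the first list, and Gnb4, Nr4a2, Synpr, Ntng2 and Nnat, all 5 tested, of the second. Among all genes, 0.929% were called in deep spots. Cdh13, Col23a1, Nr4a2 and Nnat were on average higher still in subplate spots. Gnb4, Synpr and Ntng2 were on average lower there than in deep spots. Of the corticothalamic list, Sulf1 and Thsd7b were called in deep spots, and Tle4, Foxp2, Syt6 and Crym did not pass the test, with log2 ratios of 0.05, -0.06, 0.15 and 0.19.

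Myelin moved with this axis. Of 20 myelin and oligodendrocyte genes, 15 were called higher in deep spots and 0 in upper spots, with a median log2 ratio of 0.45. Of all genes, 0.929% and 0.571% were called so. DESeq2 called fewer genes than these 15 in all, so not every one of these calls held there. Mbp stood at 6724, 8375, 5958 and 6277 CPM in deep spots against 4947, 5394, 5548 and 4259 CPM in upper spots. The deep and upper levels did not overlap, and the subplate spots were higher still. Gfap, the astrocyte filament protein, was also higher in deep spots (93.2 ± 28.8 against 68.7 ± 16 CPM, 3 of 4 sections). It was the 1 gene called of 10 astrocyte genes, whose median log2 ratio was 0.01. The part of myelinated tissue in the other differences between deep and upper spots was not tested.

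Tshz2, a zinc finger factor, stood at 77.5, 89.2, 93.1 and 102 CPM in upper spots and 53.0, 41.2, 34.1 and 52.0 CPM in deep spots, 1.83-fold higher, against 165 CPM in layer 5. Camk1g, a calcium/calmodulin-dependent kinase, was 1.87-fold higher in upper spots, with 47.0 ± 6.66 against 24.6 ± 3.55 CPM. Lypd1, which modulates nicotinic receptors, stood at 136, 219, 190 and 110 CPM in upper spots and 106, 72.6, 79.3 and 106 CPM in deep spots. Its difference was thus carried by MF2 and HF1, and its level in layer 5 was 234 CPM. Of 12 interneuron genes, 4 were called in upper spots and 0 in deep spots: the peptide gene Sst (856 ± 68.2 against 652 ± 75.4 CPM), Pvalb (216 ± 36.7 against 160 ± 13.3, in 3 of 4 sections), Reln (63.1 ± 5.57 against 42.1 ± 4.21) and Gad1 (39.5 ± 7.62 against 23.8 ± 6.15). Over all genes the shares called in upper and deep spots were 0.571% and 0.929%. The remaining upper genes were Glt8d2 and Gcnt2, glycosyltransferases (log2 -0.98 and -0.72, deep over upper), Zc3h8, a zinc finger protein (-0.92), Klhl32, a kelch family member (-0.83), and Cyp26b1, which degrades retinoic acid (-0.77, 3 of 4 sections). Each of these 5 lost its call without HF2 (adjusted p from 0.0566 to 0.348), and without MF1 the log2 ratio of Klhl32 was -0.45 (0.710). With 100 spots per section the log2 ratios of Tshz2, Camk1g and Lypd1 were -0.43, -0.60 and -0.18 (adjusted p = 0.149, 0.174 and 0.672).

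**Figure D3:**
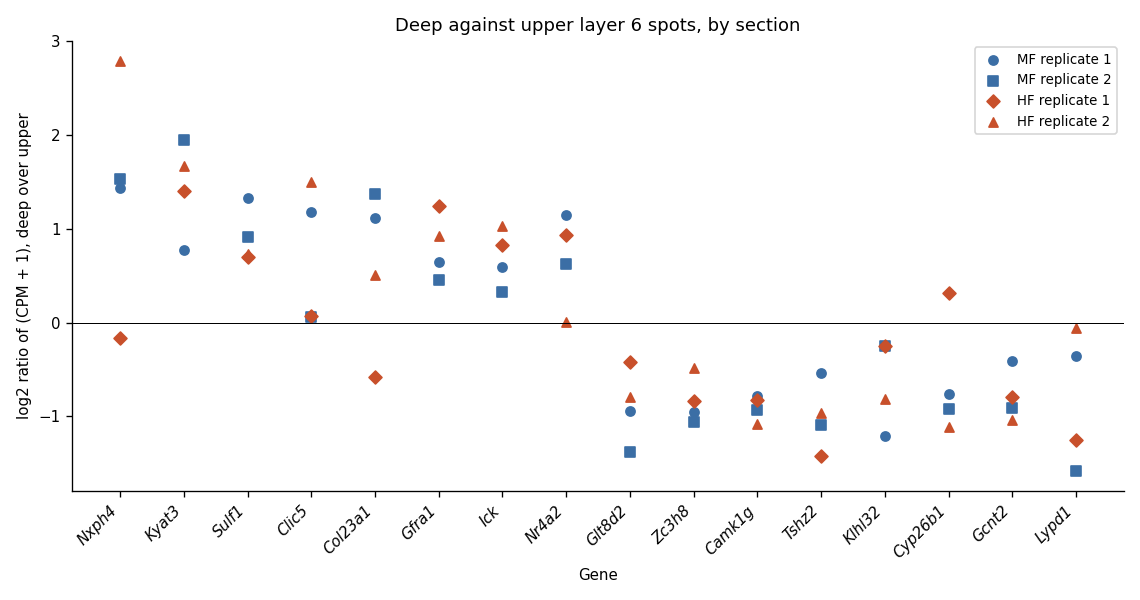
log2 ratio of (CPM + 1) in deep over upper layer 6 spots for 8 genes named as higher in deep and 8 as higher in upper spots; each point is 1 section and 0 means equal levels. Sulf1, Gfra1, Tshz2 and Camk1g keep their side of 0 in all 4 sections, while Nxph4, Col23a1 and Cyp26b1 cross it in HF1.

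Of the genes named for depth to which DESeq2 gave an adjusted p, only Tshz2 was called (0.00248). The count of deep and upper genes differed between settings. DESeq2 called 12 genes, spots thinned to 5000 UMIs and chosen again (109 to 131 of 170 per section were the same spots) gave 15, and 68 were called without MF1 and 69 without HF2.

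The maternal diets were then compared on UMIs summed over the 170 layer 6 spots of each section. Of 11192 genes tested, 3 were called higher in HF (0.0268%) and 2 lower (0.0179%), and 600 had an unadjusted p under 0.05. The called genes were Egr1, Arc and Nr4a3 above and Btaf1 and Pmch below. With 2 sections per diet, an exact test of a single gene cannot give a p below 0.333, so these p-values rest on the spread edgeR estimates over all genes. The sections of the diets did not overlap for 1857 genes higher in HF (16.6%) and 2072 lower (18.5%). The median log2 fold change over all genes was 0.00.

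Egr1, a zinc finger transcription factor induced within minutes by neuronal activity, was the gene with the lowest p. Its layer 6 level was 82.2 and 90.8 CPM in the MF sections and 344 and 665 CPM in the HF sections, from 458, 181, 642 and 1378 UMIs. The diets did not overlap, and the level in HF was 5.94-fold that in MF (log2 2.57 ± 0.20 SE, adjusted p = 1.18e-06). It kept its call when any 1 section was left out, with log2 values from 2.01 to 2.98, and by DESeq2 (adjusted p = 0.00133). The difference ran through the layer: the median layer 6 spot held 72.6 and 80.5 CPM in MF and 276 and 628 CPM in HF, and the lower quartile of HF2 (463 CPM) was above the upper quartiles of both MF sections (110 and 146 CPM).

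Arc, which encodes a cytoskeletal protein of active synapses (chromosome 15, 74669083 to 74672570, GRCm38), stood at 72.5 and 78.2 CPM in MF and 250 and 123 CPM in HF. Here HF1 was the highest section, where for Egr1 it was HF2. The fold was 2.49 (log2 1.31 ± 0.20, adjusted p = 0.0144), and leaving out HF1 gave a log2 value of 0.74 and leaving out HF2 1.75. Leaving out MF1 or MF2 ended the call (adjusted p = 0.426 and 0.0764), as did DESeq2, 100 spots per section and thinning to 5000 UMIs (0.99956, 0.131 and 0.413). Nr4a3, a nuclear receptor of the same family as Nr4a2 (chromosome 4, 48045153 to 48086447), stood at 54.0 and 55.7 CPM in MF and 84.2 and 107 CPM in HF. Its fold was 1.76 (log2 0.81 ± 0.14, adjusted p = 0.0331), and the call was lost without MF1, MF2 or HF2 (adjusted p = 0.997, 0.362 and 0.0954). For Nr4a3 it was also lost by DESeq2 (0.816), with 100 spots per section (0.249), after thinning (0.936) and in spots with 3 or more layer 6 neighbours (0.148).

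Immediate early genes switch on without new protein synthesis when a neuron fires, many through the cyclic AMP response element and the serum response element (CArG box) of their promoters. Of the 25 tested genes of this list, 3 were called higher in HF and 0 lower. In all, 22 had a positive log2 fold change, the median was 0.51 against 0.00 over all genes, and 16 were higher and 2 lower without overlap of the diets, where 16.6% and 18.5% of all genes were. The other members that the naming rule took did not pass the test. Egr4, a relative of Egr1, stood at 31.8 and 25.1 CPM in MF and 72.4 and 47.3 CPM in HF (adjusted p = 0.0794). Fos, a subunit of the AP-1 factor, was sparse, with 6.82 and 6.52 CPM in MF and 20.9 and 15.9 CPM in HF from 38, 13, 39 and 33 UMIs (adjusted p = 0.0794). Junb, its partner, stood at 32.5 and 28.6 CPM in MF and 97.1 and 45.8 CPM in HF (adjusted p = 0.0866). Dusp6, a phosphatase of the kinase ERK, and Nr4a1 had log2 values of 0.70 and 0.85 and adjusted p-values of 0.0866 and 0.115. With 1 section left out, the log2 value of Nr4a1 lay between 0.46 and 1.16 and that of Junb between 0.56 and 1.63. HF1 was the higher HF section for Arc, Egr4, Fos, Junb, Dusp6 and Nr4a1, and HF2 for Egr1, Nr4a3 and Nr4a2. Egr3, Jun and Nptx2 of the same list had negative values (-0.14, -0.27 and -0.31), so the list did not move as one. The summed level of the list was 1920, 1950, 2854 and 2852 CPM in layer 6 spots. It was 1463, 1505, 1823 and 1926 CPM in all other spots.

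Of the named immediate early genes with a promoter sequence, Nr4a3, Egr4 and Fos had the lowest p, and the bases before their start are shown. Egr1 and Arc, which had lower adjusted p-values, are not among the genes with a sequence here. The response element is part of the background given above. Each run is the 250 bases before the start of the gene on its own strand, from RefSeq in build GRCm38.p6: chr4:48045055-48045304 (+) for Nr4a3, chr6:85513590-85513839 (-) for Egr4 and chr12:85473640-85473889 (+) for Fos. The RefSeq start of Nr4a3 lies inside the GENCODE interval given above, so part of its run lies inside the gene as positioned there. Capitals mark the core element TGACG or its reverse complement CGTCA.
Nr4a3: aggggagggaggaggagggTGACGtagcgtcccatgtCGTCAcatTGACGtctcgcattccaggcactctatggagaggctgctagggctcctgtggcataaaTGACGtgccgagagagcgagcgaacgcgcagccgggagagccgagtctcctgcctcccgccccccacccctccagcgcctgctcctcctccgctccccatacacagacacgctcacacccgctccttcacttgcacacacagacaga
Egr4: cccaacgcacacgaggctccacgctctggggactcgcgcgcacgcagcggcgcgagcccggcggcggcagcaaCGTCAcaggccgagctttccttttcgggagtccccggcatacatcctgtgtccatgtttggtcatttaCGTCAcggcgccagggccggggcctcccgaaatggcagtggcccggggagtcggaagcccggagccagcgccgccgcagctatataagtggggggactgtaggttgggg
Fos: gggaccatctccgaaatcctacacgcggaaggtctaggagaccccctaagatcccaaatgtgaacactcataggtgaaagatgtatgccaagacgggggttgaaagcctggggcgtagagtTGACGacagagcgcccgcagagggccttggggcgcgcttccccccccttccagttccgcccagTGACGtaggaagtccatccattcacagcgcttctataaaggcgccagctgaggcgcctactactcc
Nr4a3 held 4 core elements, Egr4 2 and Fos 2. Of the other named genes of the list with a sequence, Nr4a1 held 4, Junb 1 and Dusp6 0. None of these 6 genes held the whole element TGACGTCA or the CArG box in this window. The core element was in 17.9% of 27025 promoters and in 11 of the 20 listed immediate early genes with a promoter sequence. The whole element was in 1.62% of promoters and in 2 of those 20 genes (Btg2 and Dusp1), and the CArG box in 1.40% and 0. Both strands were searched, and the whole element contains the core element. A match is a description of letters and not of binding.

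Neurod6, a transcription factor of cortical projection neurons, and Cckbr, the cholecystokinin B receptor, complete the genes named as higher in HF. Neurod6 stood at 90.1 and 91.3 CPM in MF and 121 and 150 CPM in HF (adjusted p = 0.120), and Cckbr at 90.6 and 86.8 against 124 and 133 CPM (adjusted p = 0.151). Neither passed the test.

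Btaf1, an ATPase that removes the TATA-binding protein from DNA (chromosome 19, 36926079 to 37012752), was lower in HF. It stood at 77.3 and 77.7 CPM in MF and 32.7 and 39.1 CPM in HF, with no overlap (log2 -1.10 ± 0.15, adjusted p = 0.00421). By DESeq2 its adjusted p was 0.0541, and the call was lost without MF1 (0.266) or MF2 (0.0742), with 100 spots per section (0.131) and after thinning to 5000 UMIs (0.858). The same difference stood in the whole sections, at 71.2 and 70.4 CPM in MF and 37.3 and 37.7 CPM in HF.

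Pmch, the precursor of melanin-concentrating hormone, is made by neurons of the lateral hypothalamus and not by cortex (chromosome 10, 88091072 to 88092375). It was nevertheless counted in layer 6 spots, at 116 and 107 CPM in MF and 38.1 and 0 CPM in HF (647, 213, 71 and 0 UMIs; log2 -2.62 ± 0.43, adjusted p = 0.0241). The fitted size rests on few UMIs in HF: without HF2 the log2 value was -1.57, and without HF1 the remaining HF section is at 0 UMIs and no size is given. The call was lost by DESeq2 (adjusted p = 0.99956), with 100 or 250 spots per section (0.170 and 0.0847) and without MF1 or MF2 (0.421 and 0.0742). In MF1, 164 of 170 layer 6 spots had a Pmch UMI, and in HF2 0 of 170, where a count of 0 (up to 3 UMIs) allows a level of up to 1.45 CPM by counting error only. Over whole sections Pmch stood at 688, 497, 321 and 0.706 CPM, so the layer 6 values followed the level of the section, and HF2 held almost none anywhere. HF2 was also the only section with high levels of the hypothalamic peptide genes Oxt and Avp. For Pmch, the maternal diet and the hypothalamic content of a section cannot be told apart. Hcrt, the orexin precursor from the same hypothalamic area, was at 11.7, 7.02, 3.22 and 0 CPM in layer 6 and 76.4, 80.8, 63.8 and 0.235 CPM in the sections (adjusted p = 0.151). The hypothalamic list of 10 genes summed to 147, 139, 69.2 and 132 CPM in layer 6 spots, with the highest mean CPM for Pmch. Pmch, Hcrt, Pomc and Ghrh each had no UMI in some section, which for Pmch and Hcrt was HF2. The part of RNA from other areas of the section in these layer 6 counts was not tested.

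The other genes named as lower in HF did not pass the test. Their diets do not overlap because the naming rule took only genes with separate sections. Mt2, a metallothionein, stood at 381 and 370 CPM in MF and 283 and 178 CPM in HF (adjusted p = 0.0957). Gfap stood at 97.4 and 97.8 CPM in MF and 70.8 and 58.4 CPM in HF (adjusted p = 0.157). For both, the spread in MF was smaller than that in HF. Ighm, the immunoglobulin mu chain, Desi1, a SUMO peptidase, Ide, the insulin-degrading enzyme, Robo3, an axon guidance receptor, and Ctss, the microglial protease cathepsin S, had log2 values between -0.61 and -0.80 and adjusted p-values from 0.0958 to 0.351.

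**Figure D4:**
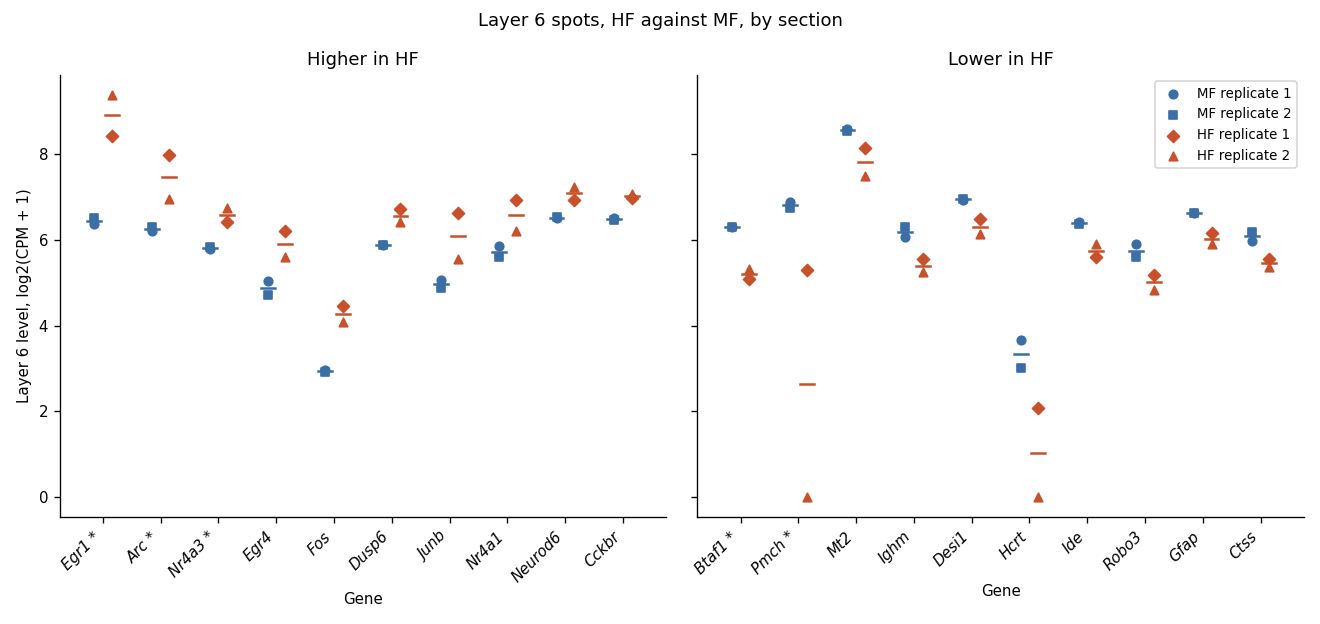
Layer 6 level per section, log2(CPM + 1), of the 10 genes named as higher and the 10 named as lower in HF; points are sections, short lines are group means and an asterisk marks a gene that passed the test. The MF sections nearly coincide for most genes while the HF sections lie apart, as for Egr1 (344 and 665 CPM) and Pmch (38.1 and 0 CPM).

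The sections of a diet were not equally alike. Over 4340 genes with at least 50 CPM in every section, the median absolute log2 difference was 0.09 between the MF sections and 0.13 between the HF sections, and 8.00% and 20.4% of genes differed at least 1.2-fold. When 1 section of either diet was left out, the log2 fold change of Egr1 lay between 2.01 and 2.98 and that of Arc between 0.74 and 1.75.

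Myelin genes were lower in HF in most cases, and none passed the test. Of 20 tested, 19 had a negative log2 fold change with a median of -0.24, and 15 were lower and 0 higher without overlap, where 18.5% and 16.6% of all genes were. Mbp stood at 5844 and 6917 CPM in MF and 5748 and 5270 CPM in HF, without overlap (log2 -0.20 ± 0.09, adjusted p = 0.883). The median of the list shrank to -0.08 when spots were thinned to 5000 UMIs and the members chosen again. The list was lower in HF outside layer 6 as well. In all other spots it summed to 28428 and 29462 CPM in MF and 23428 and 25302 CPM in HF. Of 10 microglial genes 9 had negative values (median -0.20), and of 10 astrocyte genes 8 (median -0.19). Over the alternatives these medians ran from -0.23 to -0.10 and from -0.26 to -0.07. The median distance to the subplate was 2.67 grid steps in each section, but the distances were not spread alike. Within 3 grid steps lay 128, 99, 108 and 112 of the layer 6 spots in MF1, MF2, HF1 and HF2. The median of the upper spots was 3.0, 4.0, 3.67 and 3.67 grid steps in the same order. The equal median therefore does not show equal position, and the part of the band's position in these values was not tested.

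Layer 6 identity genes did not pass the test in either direction. Of 11 corticothalamic genes 9 had positive values with a median log2 fold change of 0.13, which was -0.03 without HF2. Of 14 identity factors 12 were positive (median 0.20), with Fezf2 at 91.8 and 82.2 CPM in MF and 120 and 115 CPM in HF (adjusted p = 0.512). Without overlap of the diets, 8 of these factors were higher and 1 lower in HF, where 16.6% and 18.5% of all genes were. The intratelencephalic list had a median of 0.30, with Cdh13 at 113 and 112 against 139 and 142 CPM (adjusted p = 0.726). Among rule genes Trbc2 stood at 124 and 119 CPM in MF and 143 and 192 CPM in HF, which describes the spots taken.

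Genes of the pathway that the diets address were examined from the list of folate and one-carbon metabolism. Of 31 measured, 23 could be tested, and 0 were called in either direction, with 9 positive, 14 negative and a median of -0.06. Without overlap of the diets, 9 were lower and 2 higher in HF, where 18.5% and 16.6% of all genes were. Ahcyl2, a relative of the enzyme that splits S-adenosylhomocysteine, stood at 171 and 198 CPM in MF and 149 and 147 CPM in HF (adjusted p = 0.769). Of 11 DNA methylation genes 9 were tested and 0 called (median 0.07). Clock genes had 0 calls of 14, with 9 positive, 5 negative and a median of 0.09. Per1 stood at 53.3 and 52.7 CPM in MF and 81.5 and 73.3 CPM in HF (adjusted p = 0.351) and Per2 at 28.2 and 21.6 against 37.6 and 39.6 CPM (adjusted p = 0.643).

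**Figure D5:**
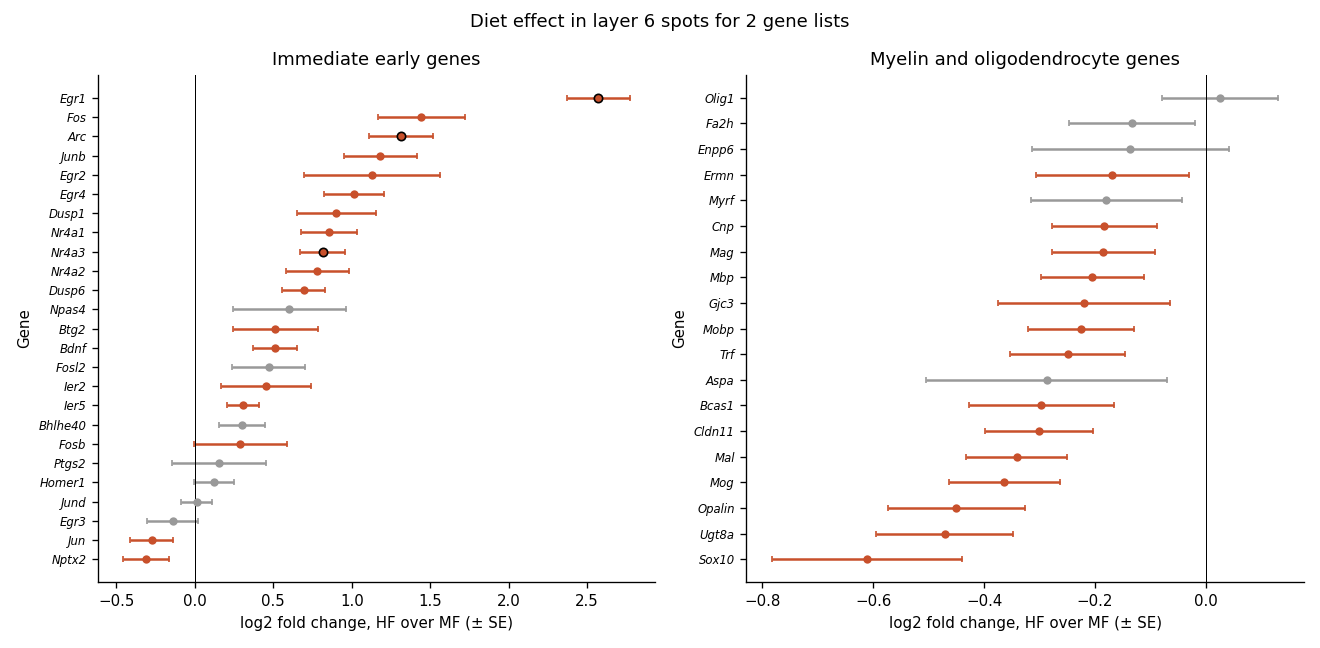
log2 fold change (HF over MF, bars ± SE) in layer 6 spots for tested genes of the immediate early list and of the myelin and oligodendrocyte list; orange marks genes whose diets did not overlap and a black edge the genes that passed the test. Egr1 lies at 2.57 and Nptx2 at -0.31, while 1 of the myelin genes shown lies above 0 and the others lie below it.

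The difference between diets was not shown to be peculiar to layer 6. In a fit over layer 6, layer 5 and layer 2-3 spots with the section as a block, 0 of 11796 genes differed in their diet effect between layer 6 and layer 5 (0.0%) and 0 between layer 6 and layer 2-3 (0.0%). Unadjusted p-values were under 0.05 for 440 and 460 genes, and DESeq2 also called 0 and 0. Egr1 stood at 72.0 CPM in MF and 348 in HF in layer 5, and at 96.9 and 481 CPM in layer 2-3. Its log2 fold change in layer 6 exceeded that in layer 5 by 0.29 ± 0.12 SE (unadjusted p = 0.0239, adjusted p = 0.999977). For Arc the difference was 0.08 ± 0.16 to layer 5 and -0.18 ± 0.17 to layer 2-3. Btaf1 stood at 68.8 CPM in MF and 38.6 in HF in layer 5, and at 77.8 and 42.1 CPM in layer 2-3. The gene of the 5 with the largest difference was Pmch, whose log2 fold change in layer 6 minus that in layer 2-3 was -1.40 ± 0.30 (adjusted p = 0.632).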

How the data were processed

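Visium-FFPE counts of 4 brain sections were used. According to its methods, the study mapped probes with Space Ranger 2.0.0 against mouse genome mm10 (GRCm38), and the authors deposited raw UMI counts per feature and spot, with spot positions and without normalization. Spots under 500 UMIs or 250 genes were removed (18 of 13470). Sections held 34983708 to 90098381 UMIs.

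Counts were summed per section over the 170 layer 6 spots, because spots of a section are not replicates, and compared by edgeR's quasi-likelihood fit (version 4.0.16 in R 4.3.3) after filterByExpr and TMM scaling. A call needed a 1.2-fold change and a p under 0.05 after Benjamini-Hochberg adjustment. The diet comparison used the 4 layer 6 sums, the layer comparison 12 sums and the depth comparison 8 sums, each of the last with section as a block. The functions were tested on simulated data. The members and gene lists were chosen with earlier results of these data known. Etv1, meant for the layer 5 score, was not among the features, so that score used 3 genes. Of 291 listed genes, 8 were not found under the listed name. The Moran's I table and the authors' test over spots were not used. A few genes that the naming rule or the lists hold are not reported here.

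Named genes were the rule genes, all genes called between diets with the lowest p filling up to 10 per direction among those with separate sections, 12 genes leading against other spots at 50 CPM or more, 5 against each layer, 8 deep, 8 upper and list members. Positions are from GENCODE vM21 and promoters from RefSeq. Alternatives were DESeq2 1.42.0, library size alone, no filter, 100 or 250 spots, spots thinned to 5000 UMIs, each section left out, a replicate block, subplate spots kept and spots with 3 or more layer 6 neighbours.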

Additional observations from a re-analysis of the deposited data

Results flagged for a closer look

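The median UMI count of layer 6 spots in MF replicate 1 was 31664, against 9583.5 to 11876.5 in the other 3 sections. It stood farther from the others than Dixon's critical value for 4 sections allows. It was the only 1 of 34 quantities tested that did so, where chance passes about 1 in 20.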

How the results depend on the processing

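Between diets, 5 genes were called. DESeq2 called 1, no filter on low counts 33, 100 spots per section 1, thinning to 5000 UMIs 2 and keeping the subplate spots 13, and leaving out 1 section gave 1 to 73, with the lone section of a diet taken to vary like the others. Egr1 was among the calls in every one of these. The replicate numbers did not pair the sections (correlation of deviations 0.03 for the same number), and a fit with replicate block gave 23. With 2 sections per diet, the crossed correlation of -0.03 is the negative of the same-number value by construction. For the diet effect of layer 6 against layer 5, 0 genes were called; no filter gave 2, 100 spots 1, thinning 1 and leaving out 1 section 0 to 2. Against layer 2-3, 0 were called; no filter gave 4, 100 spots 2, 250 spots 1 and leaving out 1 section 0 to 1. For deep against upper spots, 155 genes were called; DESeq2 gave 12, thinning 15 and leaving out 1 section 68 to 166. Ick turned from deep to upper under thinning (log2 -0.058). The other genes named between diets or between deep and upper spots kept their direction under the alternatives that could be run, while medians near 0 of several lists, the corticothalamic list among them, changed sign. The median of the hypothalamic genes tested went from -1.26 to 1.11 without MF replicate 2 and 0.08 without HF replicate 1, over the genes that passed the filter each time, which need not be the same. Layer 6 sums of 1864046 to 2073086 UMIs in 3 sections limit genes under 10 CPM. The cause of these shifts was not tested.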

Other observations

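In HF replicate 2, layer 6 spots also held the hypothalamic peptides oxytocin and vasopressin. Oxt had 2, 1, 1 and 138 UMIs and Avp 9, 2, 8 and 91 UMIs in the layer 6 spots of MF replicate 1, MF replicate 2, HF replicate 1 and HF replicate 2. Over whole sections Oxt stood at 0.699, 4.10, 1.201 and 638 CPM and Avp at 2.84, 2.64, 11.3 and 469 CPM. Neither gene passed the filter on low counts, so neither was tested between diets. Ttr, a choroid plexus transcript, was at 476, 720, 565 and 799 CPM in layer 6 and at 2387, 2245, 3351 and 3710 CPM over the sections.

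Of the upper layer 6 spots, the 3 neurofilament genes Nefm, Nefl and Nefh were all called higher than in deep spots (log2 -0.58, -0.32 and -0.42, deep over upper). They were chosen after their values were seen and belong to no list used here.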
